A study of Homo sapiens with 6 samples.

Results

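The genes of glycolysis described here are the glucose transporter SLC2A1 and 9 enzymes, HK1, HK2, PFKP, ALDOA, GAPDH, PGK1, ENO1, PKM and LDHA. They were taken by gene name from an expression table that lists 34738 genes, and all 10 were found, each as 1 row. The RNA came from KHM-5M, an established human thyroid cancer cell line, in a study of the secreted stress cytokine GDF15. Cells in which GDF15 was knocked down with a small interfering RNA (siGDF15) were compared with control cells (NC), with 3 libraries per group described as biological replicates. The sources differ on whether the NC cells received a non-targeting siRNA or no siRNA, so an effect of transfection itself cannot be told apart from that of the knockdown. The study lists a single siRNA sequence against GDF15, so effects of that sequence on other genes cannot be told apart from it either. One figure legend of the study names TPC-1, another thyroid cancer line, in place of the KHM-5M of the labels, and this was not settled here.

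Glycolysis splits glucose into pyruvate in the cytosol and yields ATP and NADH. Glucose enters through facilitative transporters such as GLUT1, the product of SLC2A1, is trapped by hexokinases as glucose 6-phosphate, and is committed to the pathway by phosphofructokinase. The later steps, from GAPDH to pyruvate kinase, returns ATP, and lactate dehydrogenase A regenerates NAD+ by turning pyruvate into lactate. Many tumour cells run this route fast even with oxygen at hand, and the factor HIF-1 and the factor MYC are known to raise transcription of many of its genes.

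Poly(A) RNA was sequenced as read pairs of 150 bases. Levels are given in FPKM, a fragment count scaled to transcript length and to the mapped fragments of the library. Differences between groups are given as log2 fold changes of siGDF15 against NC, fitted with edgeR to the deposited expected counts after TMM scaling, which sets the libraries to each other so that the bulk of genes shows no net shift. A gene was called where its p, adjusted over the 11867 genes whose mean FPKM reached 1, was under 0.05. Total counts lay between 51738814 (siGDF15 replicate 2) and 68025163 (NC replicate 2). GDF15 itself was listed at 22.4, 19.3 and 23.2 FPKM in NC and at 10.8, 10.5 and 10.7 FPKM in siGDF15, a log2 fold change of -0.92 (SE 0.079, edgeR adjusted p = 2.4e-05), so the groups followed their labels. Of the thyroid lineage genes PAX8 was at 54.3 to 64.9 FPKM in NC and 77.5 to 80.4 FPKM in siGDF15, FOXE1 at 2.53 to 2.94 FPKM in all 6 libraries, and TG, NKX2-1 and SLC5A5 at under 0.3 FPKM, so these markers of hormone-producing thyroid cells were at or near 0. Of the 10 markers of blood, endothelial and stromal cells 3 passed the filter, their list summed to 20.4 to 22.1 FPKM in NC and 19.2 to 20.7 FPKM in siGDF15, and most of that sum was CD68, a lysosomal protein gene of macrophages that other cells also express, at 15.9 to 19.5 FPKM and not called. The smooth muscle actin ACTA2, at 1.41 to 1.597 FPKM in NC and 1.64 to 2.38 FPKM in siGDF15, was called higher (log2 fold change 0.52, edgeR adjusted p = 0.021). That call was lost in 3 of 17 alternatives. PDGFRB, also past the filter, was not called (log2 fold change 0.04, edgeR adjusted p = 0.74). MYH11, a smooth muscle gene below the filter, averaged 0.051 FPKM in NC and 0.027 FPKM in siGDF15. The leukocyte and endothelial markers PTPRC, CD3E, VWF and CDH5 were at or near 0. The 6 epithelial markers were all tested, with CDH1 called higher (lost in 11 of 17 alternatives) and 5 not called. The part of ACTA2-expressing cells in the results below was not tested.

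In siGDF15 cells the members of the first steps of glycolysis fell, and a pair of later ones rose. The 4 members that bring in, trap and commit glucose, SLC2A1, HK1, HK2 and PFKP, all fell, by between 1.18-fold (SLC2A1) and 1.94-fold (HK2). Of the 6 downstream members ENO1 and PKM rose, by 1.20-fold and 1.32-fold, and ALDOA, GAPDH, PGK1 and LDHA were not called. Thus 6 of 10 members were called, beside 61.4% of all genes tested. The 2 higher members stand beside 30.0% of genes called higher and the 4 lower ones beside 31.4% called lower, so the counts were near those of the transcriptome. Calls that also passed a log2 fold change of 1 in either direction made up 7.81% of genes and none of the members. That is for edgeR after TMM scaling with the filter at a mean FPKM of 1 and all 6 libraries. With DESeq2 no member passed either. HK2 came nearest and passed that size in other edgeR fits, at -1.06 with total-count scaling, -1.01 with no filter on low values and -1.01 without NC replicate 3. With limma it reached that size too, at -1.06 on log2(FPKM + 0.1) and at -1.0 on log2(FPKM + 1). All 10 members passed the filter on low values, with expected counts of at least 4281 in every library (HK2 in siGDF15 replicate 2), and the median of their log2 fold changes was 0.01, with values from -0.96 to 0.40, beside 0.00 over all genes tested. In bulk RNA such as this, fewer cells of a type and less RNA per cell cannot be told apart.

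**Figure D1:**
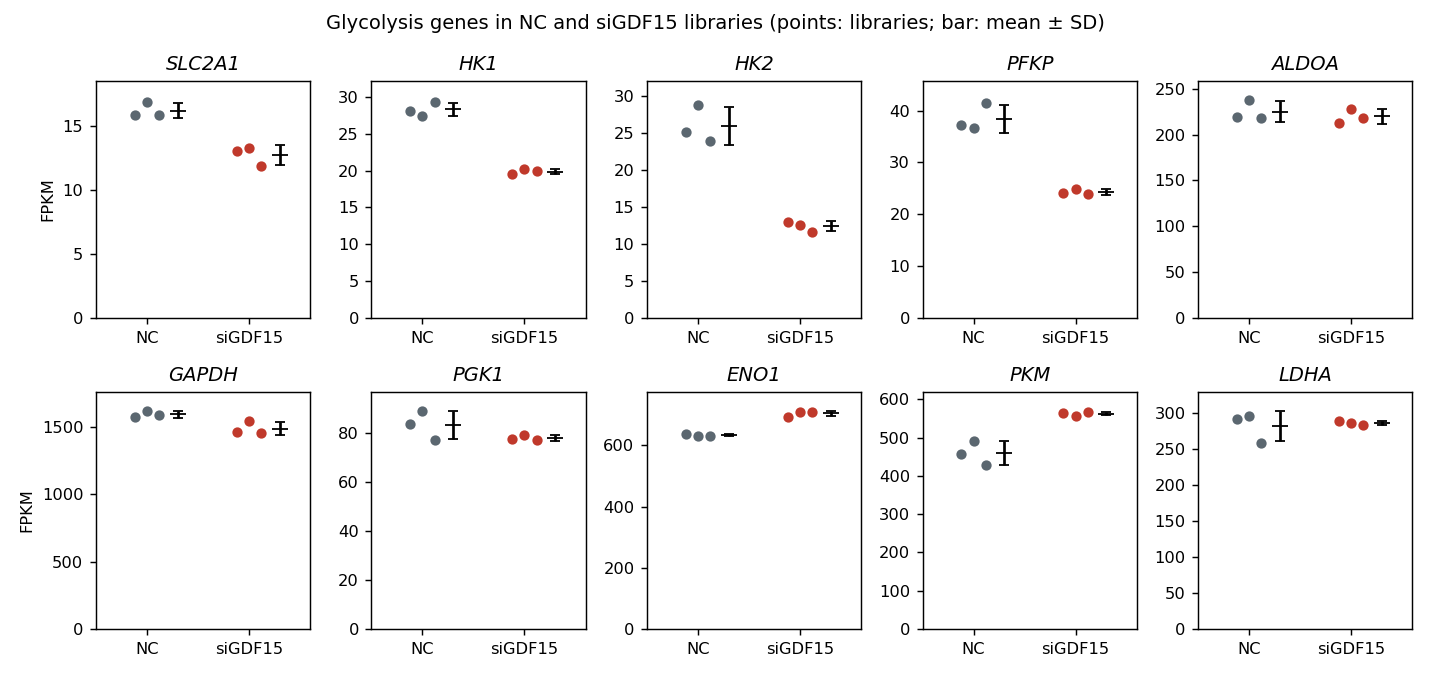
FPKM of the 10 members in the 3 NC (grey) and 3 siGDF15 (red) libraries, 1 panel per gene in pathway order with its own axis from 0. Points are libraries, in the order of their replicate numbers, and the black marks give mean ± SD. SLC2A1, HK1, HK2 and PFKP lie lower in every siGDF15 library, as does GAPDH by a small margin, ENO1 and PKM lie higher, and ALDOA, PGK1 and LDHA overlap.

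SLC2A1 (ENSG00000117394, minus strand of chromosome 1, 42925353 to 42958868 of GRCh38) encodes GLUT1, the basal glucose transporter of most cells. It was at 15.9, 16.9 and 15.9 FPKM in NC and at 13.1, 13.3 and 11.9 FPKM in siGDF15. Every siGDF15 library lay below every NC library. The log2 fold change was -0.24 (SE 0.058, 95% interval -0.375 to -0.11, edgeR adjusted p = 0.0068), the smallest of the 4 decreases, and ranged from -0.35 to -0.19 over the alternatives. The neuronal-type transporter SLC2A3, at 1.07 to 1.55 FPKM over the 6 libraries, was not called.

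HK1 (ENSG00000156515, plus strand of chromosome 10, 69269984 to 69401884), the widely expressed hexokinase, was at 28.1, 27.5 and 29.3 FPKM in NC and at 19.6, 20.2 and 19.9 FPKM in siGDF15. Its log2 fold change was -0.40 (SE 0.047, edgeR adjusted p = 0.00012). HK2 (ENSG00000159399, plus strand of chromosome 2, 74834127 to 74893359), the inducible hexokinase of muscle and of many tumours, was at 25.2, 28.8 and 23.9 FPKM in NC and at 13.0, 12.5 and 11.6 FPKM in siGDF15. HK1 and HK2 stood at similar levels in NC, with overlapping libraries, and HK2 lay below HK1 in each siGDF15 library. The log2 fold change of HK2 was -0.96 (SE 0.074, 95% interval -1.13 to -0.79, edgeR adjusted p = 1.3e-05), the largest of the members, and it was -0.88 without NC replicate 2, its highest library. HKDC1, a further hexokinase-like gene that is no member, was at 30.8, 26.1 and 32.6 FPKM in NC and at 32.7, 32.7 and 33.5 FPKM in siGDF15. HKDC1 had a log2 fold change of 0.25 (SE 0.08, edgeR adjusted p = 0.024), and the call was lost in 8 of 17 alternatives. Summed over HK1, HK2 and HKDC1, the level was 84.0 ± 1.68 FPKM in the NC libraries against 65.3 ± 0.224 FPKM in the siGDF15 libraries (SD, n = 3 each).

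PFKP (ENSG00000067057, plus strand of chromosome 10, 3066333 to 3137718) encodes the platelet isozyme of phosphofructokinase, the step that commits sugar to glycolysis. It was at 37.1, 36.6 and 41.4 FPKM in NC and at 24.1, 24.9 and 23.8 FPKM in siGDF15. The log2 fold change was -0.56 (SE 0.061, 95% interval -0.69 to -0.42, edgeR adjusted p = 9e-05). The muscle isozyme PFKM went the other way, from 12.4, 11.9 and 11.8 FPKM in NC to 17.3, 16.7 and 18.1 FPKM in siGDF15, a log2 fold change of 0.63 (SE 0.046, edgeR adjusted p = 9.3e-06). The liver isozyme PFKL was at 12.3 to 15.3 FPKM in NC and 13.2 to 13.5 FPKM in siGDF15 and was not called. The sum of the 3 isozymes was 64.1 ± 1.27 FPKM in the NC libraries against 55.0 ± 0.0907 FPKM in the siGDF15 libraries (SD, n = 3 each), so the rise of PFKM was smaller in FPKM than the fall of PFKP.

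The middle of the pathway was at similar levels in both groups. ALDOA (ENSG00000149925, plus strand of chromosome 16, 30064164 to 30070414), the aldolase that cleaves the 6-carbon sugar, was at 218.9, 237.9 and 218.6 FPKM in NC and at 212.8, 228.3 and 218.6 FPKM in siGDF15. Its log2 fold change was 0.07 (95% interval -0.05 to 0.19, edgeR adjusted p = 0.26). A gene with no symbol overlaps ALDOA on the same strand and reached 13.9 FPKM, so reads could be split between them. PGK1 (ENSG00000102144, plus strand of chromosome X, 77910739 to 78129295), the first step that returns ATP, was at 83.9, 88.9 and 77.4 FPKM in NC and at 77.7, 79.3 and 77.1 FPKM in siGDF15. Its log2 fold change was 0.01 (95% interval -0.115 to 0.135, edgeR adjusted p = 0.88). Both intervals lay within 0.19 of 0. PGAM4 lies inside PGK1 on the other strand and reached 3.08 FPKM. TPI1, the isomerase between these steps, is named here after its values were seen, since it went against its neighbours, from 232.4 to 243.7 FPKM in NC to 177.1 to 186.0 FPKM in siGDF15 (log2 fold change -0.29, SE 0.045, edgeR adjusted p = 0.00066).

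GAPDH (ENSG00000111640, plus strand of chromosome 12, 6534512 to 6538371), which makes NADH and is the common reference gene of RT-qPCR, this study's included, was the most abundant member. It was at 1571, 1620 and 1587 FPKM in NC and at 1462, 1540 and 1451 FPKM in siGDF15. On FPKM the groups did not overlap, with siGDF15 below, while after TMM scaling the log2 fold change was 0.00 (SE 0.042, 95% interval -0.09 to 0.10, edgeR adjusted p = 0.94). The mitochondrially encoded genes held 27.1 to 28.3% of the summed FPKM in NC and 32.8 to 34.3% in siGDF15, but only 6.39 to 6.78% and 8.53 to 9.17% of the counts, and leaving them out before TMM scaling gave GAPDH a log2 fold change of 0.01. With total-count scaling GAPDH was called lower, at -0.10 (edgeR adjusted p = 0.049), on a scale where the median of all genes was also at -0.10, and limma on log2 FPKM with a pseudocount of 1 or 0.1 called it lower too (limma adjusted p = 0.039 and 0.04). Its 24 listed pseudogenes summed to at most 10.5 FPKM in a library. Counting members by FPKM alone, 2 lay above NC in every library, 5 lay below, GAPDH among them, and 3 overlapped. Over all genes tested 68.4% did not overlap between groups.

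ENO1 (ENSG00000074800, minus strand of chromosome 1, 8861000 to 8878690), the broadly expressed enolase, was at 638.1, 631.5 and 631.6 FPKM in NC and at 694.1, 710.5 and 709.4 FPKM in siGDF15. The log2 fold change was 0.26 (SE 0.035, 95% interval 0.18 to 0.34, edgeR adjusted p = 0.00033). PGAM1, the phosphoglycerate mutase just before it, rose by 0.25 on the log2 scale (SE 0.048, edgeR adjusted p = 0.002), from 236.5 to 256.9 FPKM in NC to 271.4 to 276.7 FPKM in siGDF15. The other enolases fell. ENO2, the neuronal enolase, went from 21.5, 26.5 and 20.4 FPKM in NC to 10.02, 10.3 and 10.5 FPKM in siGDF15 (log2 fold change -1.04, SE 0.091, edgeR adjusted p = 2.6e-05), and ENO3, the muscle enolase, from 1.23 to 1.83 FPKM to 0.77 to 0.83 FPKM.

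PKM (ENSG00000067225, minus strand of chromosome 15, 72199029 to 72231680) encodes the pyruvate kinases M1 and M2, splice forms that a gene-level value does not separate. It was at 458.5, 491.0 and 427.8 FPKM in NC and at 564.1, 557.8 and 566.4 FPKM in siGDF15. Every siGDF15 library lay above every NC library, and the log2 fold change was 0.40 (SE 0.048, 95% interval 0.29 to 0.51, edgeR adjusted p = 0.00016). LDHA (ENSG00000134333, plus strand of chromosome 11, 18394560 to 18408218) was at 292.6, 296.5 and 258.5 FPKM in NC and at 289.5, 286.6 and 283.5 FPKM in siGDF15. The groups overlapped, and the log2 fold change was 0.13 (SE 0.054, 95% interval 0.003 to 0.25, edgeR adjusted p = 0.072). A pair of alternatives took LDHA past the threshold, upper quartile scaling (edgeR adjusted p = 0.04) and leaving out NC replicate 2 (log2 fold change 0.16, edgeR adjusted p = 0.033).

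**Figure D2:**
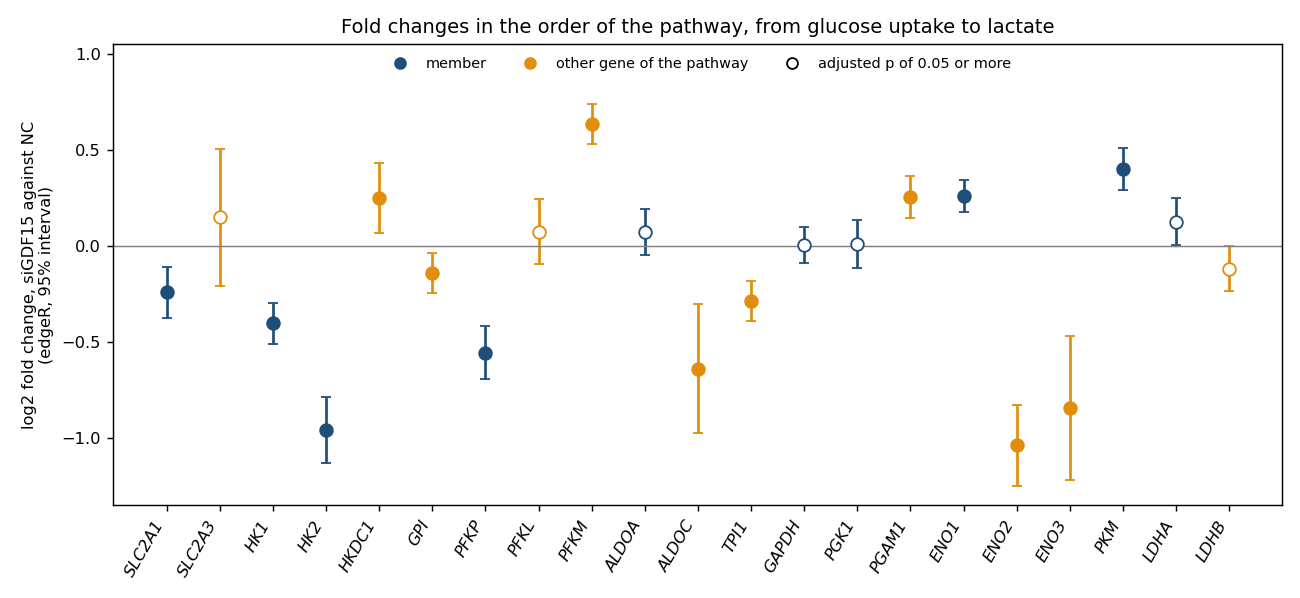
Log2 fold change of siGDF15 against NC (edgeR, points, with 95% intervals) for the members and other enzymes of the same steps, in pathway order from uptake on the left to lactate on the right; open points had an adjusted p of 0.05 or more. Members from SLC2A1 to PFKP lie below 0, those from ALDOA to PGK1 at about 0, and ENO1 and PKM above 0, while PFKM lies above and TPI1, ENO2 and ENO3 lie below.

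Set side by side, the summed FPKM of SLC2A1, HK1, HK2 and PFKP was 106.3, 109.7 and 110.4 in NC and 69.8, 70.8 and 67.2 in siGDF15. For ENO1 and PKM the sum was 1097, 1123 and 1059 in NC and 1258, 1268 and 1276 in siGDF15. Within a library, where scaling between libraries plays no part, the ratio of PKM to HK2 was 18.2, 17.1 and 17.9 in NC and 43.3, 44.5 and 48.7 in siGDF15. These sums were formed after the directions were known and are given as description only. The 10 members together summed to 3312 to 3476 FPKM in NC and 3370 to 3474 FPKM in siGDF15, which did not differ beyond their spread (two-sided exact permutation test, p = 0.7, smallest possible p = 0.1). As a share of all FPKM they held 1.30 ± 0.032% in NC and 1.20 ± 0.01% in siGDF15 (SD, n = 3 each, exact permutation p = 0.1), and without the mitochondrially encoded genes 1.80 ± 0.058% and 1.81 ± 0.036% (exact permutation p = 0.9). In counts scaled to library size after TMM, which are not divided by transcript length, their share was instead higher in siGDF15. The direction of the share thus depended on the unit.

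In order of level the members ran GAPDH, ENO1, PKM, LDHA, ALDOA, PGK1, PFKP, HK1, HK2 and SLC2A1 in NC, from 1593 down to 16.2 FPKM. Only HK1 and HK2 overlapped among neighbours in that order. In siGDF15 the first 8 genes stood in the same order, and HK2, with a mean of 12.4 FPKM, came last beside SLC2A1, with 12.8 FPKM, their libraries overlapping. The transporter, the hexokinases and PFKP were thus the least abundant members in both groups.

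Several steps have more than 1 isozyme, and the share of each within its step is a ratio inside a library. HK2 held 47.2, 51.2 and 44.9% of HK1 plus HK2 in NC and 39.9, 38.4 and 36.9% in siGDF15. PFKP held 59.0, 57.3 and 63.3% of the phosphofructokinase genes in NC and 43.9, 45.2 and 43.3% in siGDF15, a difference of -15.7 percentage points, while PFKM went from 18.8 ± 0.868% to 31.6 ± 1.24% (SD, n = 3 each). LDHA held 51.6, 53.9 and 47.9% of LDHA plus LDHB in NC and 55.51, 55.55 and 55.02% in siGDF15. In expected counts this share averaged 67.9% in NC and 71.5% in siGDF15. The FPKM of LDHA overlapped between groups, while LDHB was at 253.6 to 281.6 FPKM in NC and 229.3 to 231.8 FPKM in siGDF15. LDHB was not called (log2 fold change -0.12, edgeR adjusted p = 0.071). Groups did not overlap at any of these steps. ENO1 held 96.3 ± 0.523% of the enolases in NC and 98.5 ± 0.0209% in siGDF15, and ALDOA 99.4 ± 0.042% and 99.6 ± 0.012% of ALDOA plus ALDOC (SD, n = 3 each). SLC2A1 held 91.1 to 94.1% and 89.8 to 91.4% of SLC2A1 plus SLC2A3, and these groups overlapped. Each of the 5 steps whose groups did not overlap had a two-sided exact permutation p = 0.1, the smallest that 3 libraries against 3 can give, and 0.12 after adjustment over 6 steps, so none could pass 0.05.

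**Figure D3:**
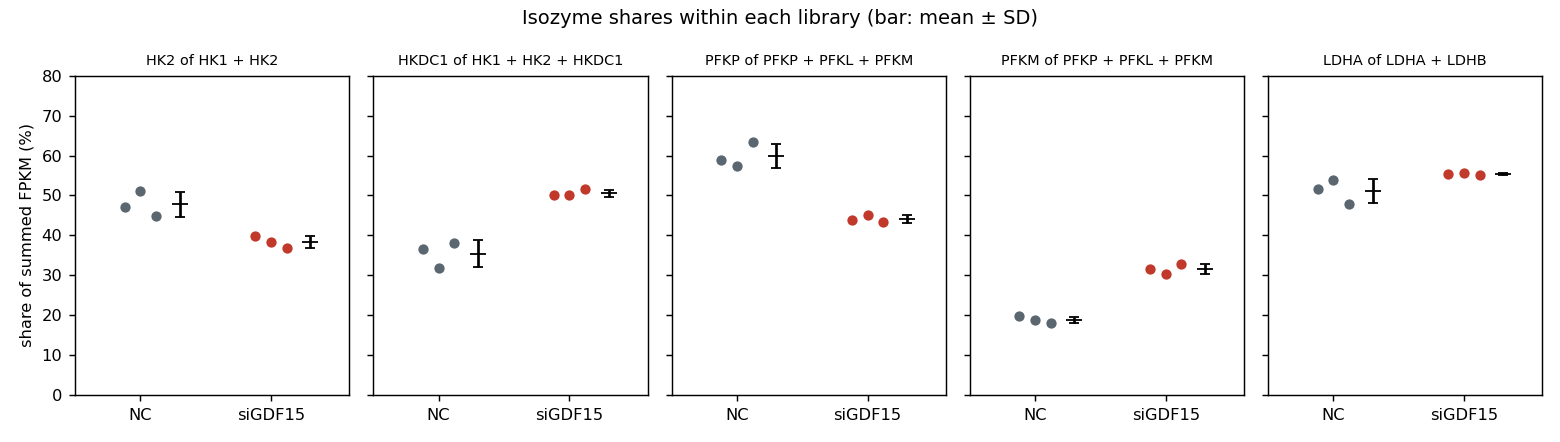
Share, in percent of the summed FPKM of the genes named above each panel, of 1 isozyme per library (points, NC grey and siGDF15 red), with mean ± SD as black marks. HK2 and PFKP hold a smaller share in all 3 siGDF15 libraries, and HKDC1 (50.6 ± 0.839% against 35.4 ± 3.3% in NC), PFKM and LDHA a larger one.

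GAPDH was the reference of the study's RT-qPCR, so each member was also set against it within each library. Relative to GAPDH, HK2 was at -5.96, -5.82 and -6.06 on the log2 scale in NC and at -6.81, -6.94 and -6.96 in siGDF15, a difference of -0.96. The differences of SLC2A1, HK1 and PFKP were -0.25, -0.41 and -0.56, and those of ENO1 and PKM 0.26 and 0.40. ALDOA, PGK1 and LDHA differed by 0.07, 0.01 and 0.13, with overlapping libraries. Against the geometric mean of 14 reference genes GAPDH itself was higher in siGDF15 by 0.15. Against that mean SLC2A1 differed by -0.10 and its groups overlapped, while ALDOA and LDHA were higher in all siGDF15 libraries, by 0.22 and 0.28. Of these 14 genes 8 were called lower and 3 higher with edgeR. The tubulin TUBB, at 582.9 to 633.8 FPKM in NC and 309.1 to 320.0 FPKM in siGDF15, differed from GAPDH by -0.83, the ribosomal protein gene RPL13A by 0.62, and the actin ACTB by 0.07 with overlapping libraries. Whether the groups overlapped for SLC2A1, ALDOA and LDHA thus depended on the reference chosen, and the directions of HK1, HK2, PFKP, ENO1 and PKM were the same against both.

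**Figure D4:**
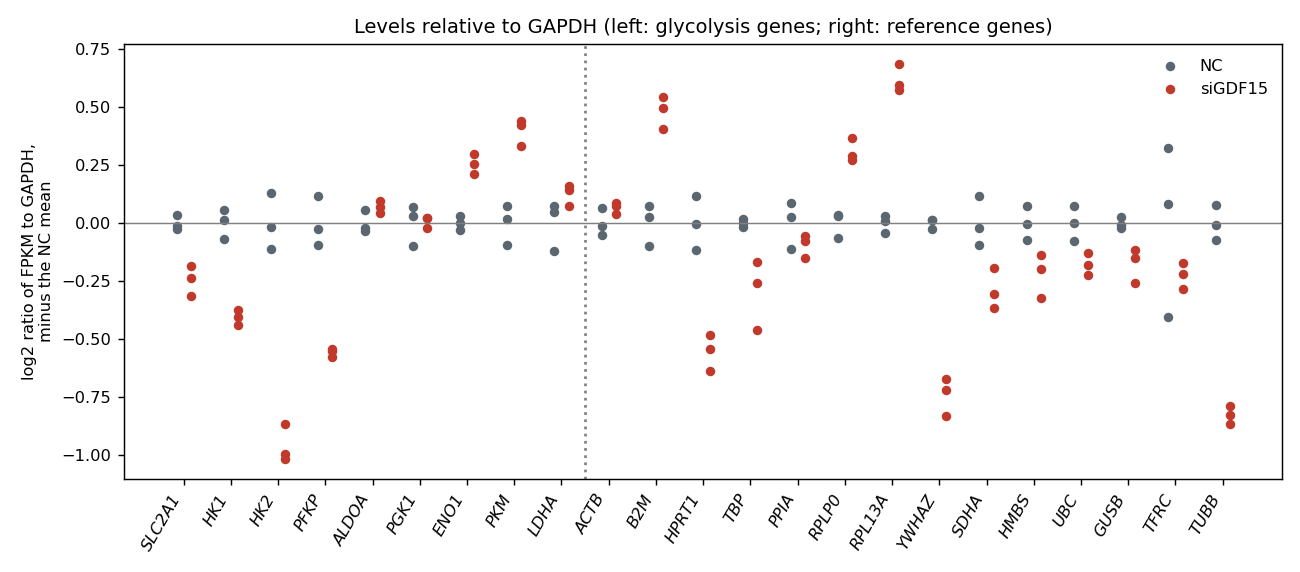
Log2 ratio of FPKM to GAPDH in each library, minus the NC mean of that gene, for the other 9 members (left of the dotted line) and 14 reference genes (right), with NC in grey and siGDF15 in red. The siGDF15 means of HK2 and TUBB lie lowest, at -0.96 and -0.83, and the points of ALDOA, PGK1, LDHA and ACTB overlap between groups.

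The start sites of the members were read for ACGTG, a hypoxia response core bound by HIF-1. They were also read for the E-box CACGTG, which holds that core and is bound by MYC and related factors. Both strands of the 250 bases before each RefSeq start site (GRCh38.p14) were searched. The core was present before at least 1 start site of 6 of 10 members, HK2, PFKP, ALDOA, GAPDH, PGK1 and LDHA, beside 21.7% of all genes with a window, and the E-box in 4 members beside 7.73%. The first group holds genes that fell and genes that were not called, and neither motif was found before SLC2A1, HK1, ENO1 or PKM, which were called in both directions. The windows of 3 members are shown, for the member that changed most and for a pair that were not called, with each match in capitals (ACGTG, its reverse complement CACGT, or the E-box). The HK2 window is chr2:74833877-74834126, the PGK1 window chrX:78103998-78104247 and the LDHA window chr11:18394313-18394562, all on the plus strand and printed 5′ to 3′. HK2 and LDHA each have a second RefSeq window that is not printed. The E-box matches of HK2, 2 of them, lie in its other window, chr2:74834920-74835169, and the printed one holds the core alone.
HK2: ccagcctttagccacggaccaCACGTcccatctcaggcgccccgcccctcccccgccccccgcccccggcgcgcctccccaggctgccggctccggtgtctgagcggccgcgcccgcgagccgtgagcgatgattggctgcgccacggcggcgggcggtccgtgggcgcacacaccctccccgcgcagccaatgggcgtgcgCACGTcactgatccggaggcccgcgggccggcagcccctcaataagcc
PGK1: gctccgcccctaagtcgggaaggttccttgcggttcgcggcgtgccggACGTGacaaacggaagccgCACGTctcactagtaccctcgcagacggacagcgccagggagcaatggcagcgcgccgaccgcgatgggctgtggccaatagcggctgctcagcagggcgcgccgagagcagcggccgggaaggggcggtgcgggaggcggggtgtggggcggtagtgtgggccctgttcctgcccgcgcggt
LDHA: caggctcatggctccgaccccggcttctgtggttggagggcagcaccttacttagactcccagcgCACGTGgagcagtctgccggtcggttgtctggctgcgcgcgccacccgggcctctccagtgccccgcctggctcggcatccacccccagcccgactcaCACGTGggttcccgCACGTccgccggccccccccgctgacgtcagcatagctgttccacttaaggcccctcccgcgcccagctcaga
A gene with more windows has more chances of a match, and the 10 members had 23 windows where 27305 genes had 35116. Over windows, the core was in 9 of 23 member windows (39.1%) and in 18.5% of all 35116 windows. The E-box was in 4 member windows (17.4%) and in 6.34% of all windows. A match is a string of letters only, and none was tested for binding. Other sequences and bases outside the windows were not searched, so a window without a match does not show that a binding site is absent.

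Other genes of the pathway were drawn from lists of known enzymes, transporters and regulators. Of 13 further enzymes tested, 3 were called higher (PFKM, HKDC1 and PGAM1), 6 lower and 4 not, with a median log2 fold change of -0.12 beside 0.00 over all genes. Besides ENO2 and ENO3, the lower ones were ALDOC (-0.64), the ADP-dependent glucokinase ADPGK (-0.49), TPI1, and the isomerase GPI, whose log2 fold change of -0.14 lost its call in 6 of 17 alternatives. Of 5 further glucose transporters SLC2A6 (0.56) and SLC2A10 (0.47) were called higher, the latter not in 6 of 17 alternatives. The enzymes that set the level of fructose 2,6-bisphosphate, the activator of phosphofructokinase, went both ways. PFKFB3, known for its strong kinase activity, fell from 17.7 to 19.1 FPKM in NC to 12.3 to 14.2 FPKM in siGDF15 (log2 fold change -0.38, SE 0.062, edgeR adjusted p = 0.0009). PFKFB2 (0.42) and the p53-induced phosphatase TIGAR (0.34) rose, each under 4 FPKM.

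The exits of pyruvate and lactate also differed. SLC16A3, which encodes the lactate exporter MCT4, was at 27.8, 32.3 and 25.7 FPKM in NC and at 19.7, 19.9 and 19.2 FPKM in siGDF15 (log2 fold change -0.44, SE 0.077, edgeR adjusted p = 0.0012). SLC16A1, which encodes MCT1, fell by 0.26, and BSG, the chaperone of both, rose by 0.31. MPC1, a subunit of the mitochondrial pyruvate carrier, rose by 0.56. Of 11 genes of pyruvate dehydrogenase and its regulators 5 rose and 3 fell, among them the phosphatase PDP1 (0.65) and the kinase PDK2 (0.63) on one side and the subunit DLAT (-0.57) and the kinase PDK3 (-0.37) on the other. The higher count fell to 3 with total counts, without a filter, with limma and without NC replicate 1, and PDHA1 and DLD lost their calls in 8 and 5 of 17 alternatives. Of 16 genes of the tricarboxylic acid cycle 8 rose and 6 fell, from IDH3G (0.55) to DLST (-0.60), so that 14 of 16 were called beside 61.4% of all genes. The balance turned with the scaling, since total counts and both limma fits gave 3 higher and 7 lower and no filter gave 4 higher.

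Branches off the pathway went in both directions too. Of 8 pentose phosphate genes 3 rose, among them H6PD, the enzyme of the endoplasmic reticulum (0.88), and PGLS, the lactonase (0.38), and 3 fell, RPIA (-0.49), RPE (-0.34) and PGD (-0.24). Of 9 glycogen genes PGM1 (0.48), PYGL (0.27) and GYS1 (0.27) rose, and PGM2 (-0.74) and UGP2 (-0.31) fell. The largest change in any of these lists was in gluconeogenesis, where PCK2, the mitochondrial phosphoenolpyruvate carboxykinase, went from 18.1, 19.0 and 16.5 FPKM in NC to 3.42, 3.83 and 4.03 FPKM in siGDF15, a log2 fold change of -2.14 (SE 0.083, edgeR adjusted p = 6.1e-07).

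Of 9 transcription regulators of the pathway 3 rose, and none was lower with edgeR, also at an unadjusted p under 0.05, or with DESeq2. EPAS1, which encodes HIF-2α, was at 11.9, 14.1 and 10.6 FPKM in NC and at 20.3, 19.8 and 19.9 FPKM in siGDF15 (log2 fold change 0.82, SE 0.09, edgeR adjusted p = 8.7e-05). Its partner ARNT rose by 0.61 and the glucose-responsive factor MLXIP by 0.31. HIF1A and MYC, named for their roles after their values were seen, had log2 fold changes of 0.07 (edgeR adjusted p = 0.48) and -0.01 (edgeR adjusted p = 0.97), and MYC ranged from 24.5 to 41.9 FPKM among the NC libraries. Of 18 hypoxia-induced genes outside glycolysis 5 were called higher, 2 lower and 11 not, and these counts rested on single libraries. Without NC replicate 2, 11 were called higher and 1 lower, whereas without NC replicate 1, siGDF15 replicate 1 or siGDF15 replicate 2 only 3 were called higher, as with total counts, with no filter and with limma. The lower count ran from 0, without NC replicate 1 or siGDF15 replicate 3, to 4, without NC replicate 3. ADM (0.45), BNIP3L (0.43) and EGLN1 (-0.18) lost their calls in 8, 9 and 6 of 17 alternatives, and ANGPTL4 and PLOD2 in none. ANGPTL4, a secreted lipase inhibitor, rose by 1.40 (SE 0.1, edgeR adjusted p = 8.7e-06) and PLOD2, a collagen lysyl hydroxylase, by 1.12 (SE 0.047, edgeR adjusted p = 7.6e-07). Of the 10 members, many of which HIF-1 is also known to induce, 4 fell, 2 rose and 4 were not called. A part of HIF factors in any of these changes was not tested.

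Within NC, replicate 2 was the highest library for 7 of 10 members on log2 CPM (counts scaled to library size after TMM) and for 15 of 18 hypoxia-induced genes, the latter by a median of 0.26 above the group mean, and replicate 3 was the lowest for 13 of 18, by a median of -0.18. The members' own medians were 0.06 and -0.03 in those libraries, and replicate 2 was also the lowest library for the other 3 members. In siGDF15, replicate 2, which had the lowest total count, was the highest for 9 of 10 members, by a median of 0.04, and for 15 of 18 hypoxia-induced genes, and replicate 3 was the lowest for 14 of 18. Replicate 2 was thus most often the highest in both groups for the members and the hypoxia-induced genes, by smaller amounts in siGDF15. Replicate 3 was most often the lowest in both groups for the hypoxia-induced genes, again by less in siGDF15. For the members the lowest NC library was spread over replicates 1, 2 and 3, with 3, 3 and 4 genes. The part of these differences between libraries in the fold changes above was not tested beyond leaving out each library.

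HK2 had the smallest adjusted p of the members, and the genes whose pattern over the 6 libraries was most like it were LRP8, NET1 and ADCY7. Likeness was the root mean square difference of log2 CPM about each gene's mean, at 0.04, 0.04 and 0.044. LRP8, an apolipoprotein E receptor, was at 4.42, 4.99 and 4.4 FPKM in NC and at 2.43, 2.27 and 2.15 FPKM in siGDF15. NET1, a guanine nucleotide exchange factor, had a log2 fold change of -0.96 and ADCY7, an adenylate cyclase, one of -0.94. In each of the 3, as in HK2, NC replicate 2 was the highest library. They were chosen for this likeness, so the shared order of libraries and size of change are no separate result.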

How the data were processed

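Poly(A) RNA of 6 libraries was sequenced by the authors on an Illumina NovaSeq. The submitters' processing notes name fastp, HISAT2, StringTie and edgeR and the build GRCh38, and versions are not given in the sources used here. The authors deposited FPKM values, scaled to transcript length and mapped fragments, and unnormalized expected counts that StringTie derives from coverage. These counts are whole numbers, and about 4 of them make up 1 read pair.

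Counts were fitted with edgeR 4.0.16 in R 4.3.3 (quasi-likelihood F test, TMM, two-sided, Benjamini-Hochberg over genes whose mean FPKM reached 1). The edgeR fit was tested on simulated counts in which far fewer genes changed than were called here. That test therefore does not cover scaling where most genes differ. Other values used Python 3.11.15 with scipy 1.17.1 and exact permutation tests over libraries. Rounding changed the expected counts only in the alternative that divided them by 4. limma 3.58.1 and DESeq2 1.42.0 served as alternatives. All 10 members were named, with up to 4 called genes per list and direction by size of change, the isozymes, and the 3 patterns nearest to the member of lowest p. Members and lists were chosen with earlier results of these data known. Promoter windows came from RefSeq GRCh38.p14.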

Additional observations from a re-analysis of the deposited data

How the results depend on the processing

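With 17 alternatives of scaling, tool, filter, unit, pairing and left-out libraries, SLC2A1, HK1, HK2 and PFKP stayed called lower and ENO1 and PKM called higher in each. ALDOA, GAPDH and PGK1, which were not called with TMM, changed sign, and GAPDH was called lower with total counts and both limma fits, where 5 members were lower. Total-count scaling gave log2 fold changes of -0.0306, -0.0982 and -0.0922 for them, limma on log2(FPKM + 1) -0.0333, -0.102 and -0.0921, and limma with a pseudocount of 0.1 gave -0.0334, -0.102 and -0.0931. These scales put the median of all genes at -0.0992, -0.0813 and -0.0997, against 0.00257 with TMM. Without a filter GAPDH was at -0.05 and PGK1 at -0.0432, and with a mean FPKM of at least 0.1 at -0.0267 and -0.02. Leaving out 1 library at a time gave -0.0297 to 0.0257 for GAPDH and -0.0363 to 0.0534 for PGK1. The members' median was -0.0952 with total counts, -0.0466 without a filter, and -0.097 and -0.0975 with limma. With a log2 fold change of at least 1 required, 0 members were called higher and 0 lower with TMM, the filter at a mean FPKM of 1 and all libraries. HK2 reached -1.06 with total counts and -1.01 without a filter or without NC replicate 3. With limma it reached -1.06 on log2(FPKM + 0.1) and -1.0 on log2(FPKM + 1). The members' share of the summed values was lower by 0.1 percentage points in FPKM and higher by 0.0833 in TMM-scaled CPM, which is not divided by transcript length. The HK2 share differed by -11.9 points once HKDC1, added after seeing the data, was counted in, and the ALDOA share by 0.163 points in expected counts. Replicate numbers were not taken as pairs, since the deviations of same-numbered libraries correlated at only 0.028, -0.075 and 0.046 and 2 of 6 libraries correlated best with their own number. The replicate block left 2 members higher and 4 lower (HK2 at -0.96) and 6906 genes called instead of 7286. The cause of these shifts was not tested.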
